A study of Mus musculus with 4 samples.

Results

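The genes described are 44 members of the machinery by which intestinal epithelial cells sense microbes and answer through NF-kB and cytokines, of 38124 gene IDs counted in the series. They were listed by name, with no threshold on their values but with earlier results of these data known, and fall into 19 sensors and adaptors, 11 NF-kB subunits and inhibitors, and 14 cytokines, receptors and outputs. All 44 were found in the count tables through their Ensembl IDs. RNA was measured in epithelial cells from the intestine of male C57BL/6 mice, 71 weeks old in every group, fed a diet labelled high-fat (HFD) or normal (control, titled WT). Cells were sorted by GFP into GFP-Hi cells (labelled as intestinal stem cells) and GFP-Low cells (labelled as progenitors). Each of the 4 groups is 1 poly(A) RNA-seq library made from 2 to 5 pooled mice, so no group has a replicate. The sources used here do not give the GFP allele, the gene that drives it or what the diets contained.

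In an epithelial cell, Toll-like receptors recognise microbial lipids, proteins or nucleic acids at membranes, and the NOD receptors recognise peptidoglycan fragments in the cytoplasm. Most Toll-like receptors signal through the adaptor Myd88, the Irak kinases and the ubiquitin ligase Traf6, and the NOD receptors through the kinase Ripk2. Both routes release NF-kB dimers from their inhibitors, and the dimers then switch on cytokines, chemokines and antimicrobial proteins as well as several of their own inhibitors. In the intestine this response is held in check next to a dense microbiota. Epithelial receptors for IL-17 and IL-22, with Stat3 behind the latter, carry signals from lymphocytes into the same antimicrobial output.

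The libraries held between 4677389 and 6207080 counts. The stem cell gene Lgr5 was at 242 CPM (counts scaled to a library of 1000000 counts, with TMM factors) in both GFP-Hi libraries and at 12.5 and 12.7 CPM in the HFD and control GFP-Low libraries. Lgr5 was thus higher in the fraction labelled as stem cells under each diet. The 10 stem markers together summed to 9651 and 10700 CPM in HFD and control GFP-Hi and to 1510 and 2029 CPM in GFP-Low. Of these 10, 2 were called lower in HFD (Tnfrsf19 and Msi1) and 0 higher, against 3.0% and 2.26% of all genes tested. Of 22 leukocyte markers, 10 had no count in any library, among them Ptprc (CD45), Cd4, Csf1r and Adgre1, and 18 had at most 10 counts in each. Their summed level was 89.5 and 90.6 CPM in HFD and control GFP-Hi and 49.7 and 76.4 CPM in HFD and control GFP-Low, mostly from Lcp1 and Itgam. The 10 stromal and endothelial markers summed to between 2.72 and 26.9 CPM, with 4 of them at 0 throughout (Col1a1, Col1a2, Col3a1 and Cdh5). Markers of differentiated cells moved with both factors. Goblet markers summed to 17080 CPM in HFD and 38750 CPM in control GFP-Low, and to 2969 and 3314 CPM in GFP-Hi. Paneth markers summed to 460 and 782 CPM in HFD and control GFP-Hi and to 1143 and 2293 CPM in GFP-Low. Enterocyte markers summed to 1304 and 1018 CPM in GFP-Hi and to 8215 and 4062 CPM in GFP-Low. Enteroendocrine markers summed to 79.2 and 57.9 CPM in HFD and control GFP-Hi and to 482 and 1144 CPM in GFP-Low. Tuft markers were low, at 16.35 and 13.98 CPM in GFP-Hi and at 25.25 and 32.32 CPM in GFP-Low. The part of these shifts in the differences below was not tested. In such bulk libraries, fewer cells of a type and less RNA per cell cannot be told apart.

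Of the 44 members, 33 had at least 20 counts in at least 2 libraries and were tested, and 11 were not. A rough scale for comparison between genes is the mean over the 4 libraries of CPM per kb of exon. It divides by the exon bases of all annotated transcripts together (5081 in Nlrp6, 1497 in Casp1 and 3800 in Pycard). The order of genes thus depends on the annotation and may not follow transcript numbers. On this scale the most abundant members belonged to the inflammasome, the complex that activates caspase-1. Nlrp6, a cytoplasmic sensor of the gut epithelium, stood at 78.3 CPM per kb. Casp1, the protease itself, was at 60.9 and Pycard, the adaptor ASC that links sensor and protease, at 57.2 CPM per kb. They were followed by the NF-kB inhibitor Nfkbia at 35.9 and the TNF receptor Tnfrsf1a at 34.2 CPM per kb. The cell-surface and peptidoglycan sensors were far lower, with Tlr1 at 2.59, Nod1 at 2.26, Tlr2 at 1.88 and Nod2 at 1.28 CPM per kb. The least abundant tested member on this scale was Rel, at 0.514 CPM per kb.

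**Figure D1:**
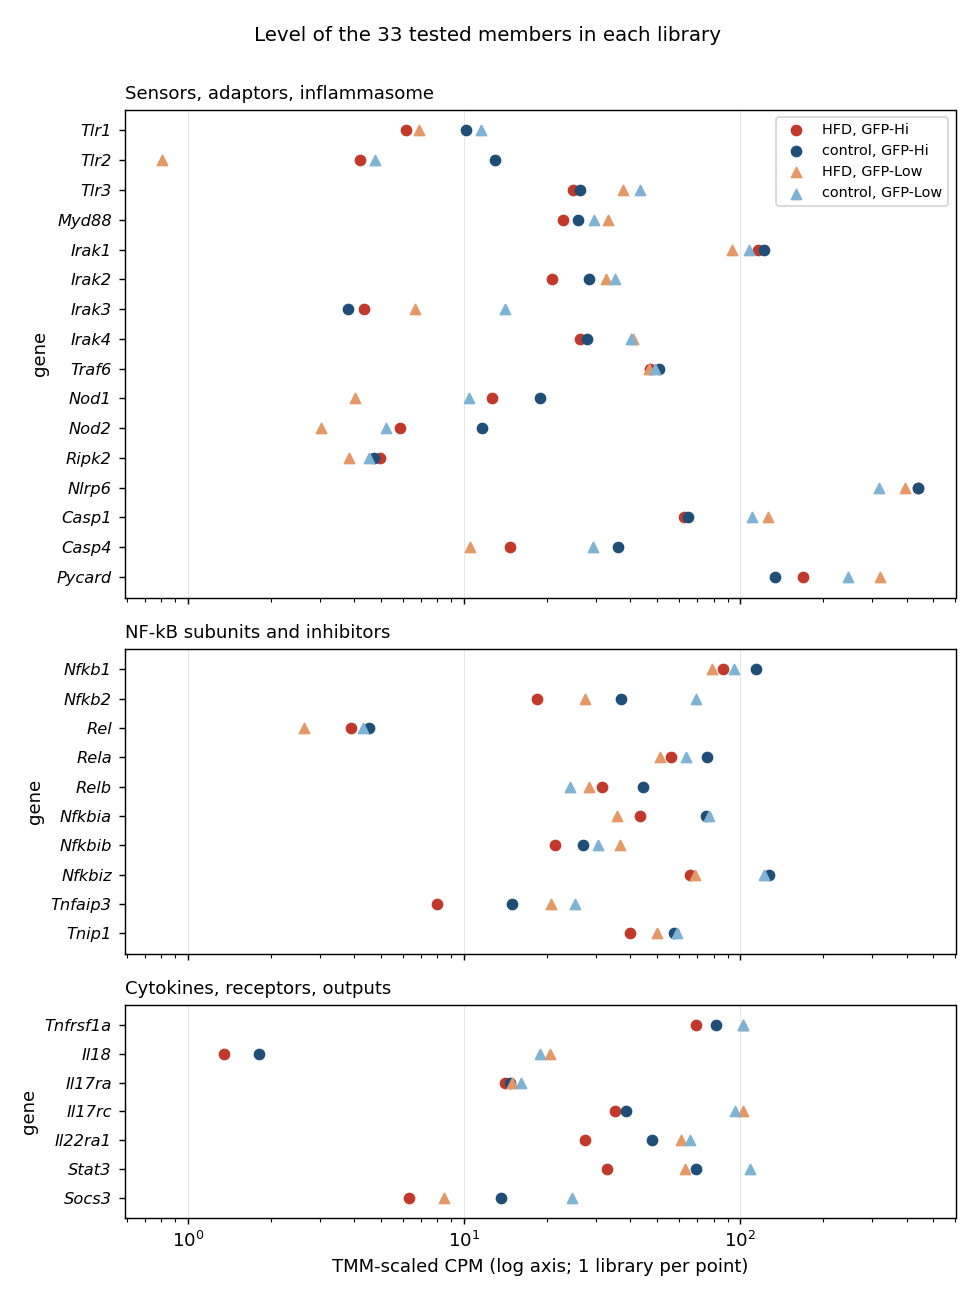
Level of the 33 tested members in TMM-scaled CPM (log axis), 1 point per library, with circles for GFP-Hi, triangles for GFP-Low, warm colours for HFD and blue for control. In Nfkbia, Nfkbiz, Casp4 and Socs3 both HFD points lie left of both control points, while in Il18 and Il17rc the points divide by fraction.

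The main question of the design is what differed between HFD and control. In the additive model over both fractions, 7 of the 33 tested members were lower in HFD, none was higher and 26 did not pass (edgeR quasi-likelihood F-test, Benjamini-Hochberg adjusted p under 0.05 over 10694 genes). Across all genes tested, 5.26% were called, 3.0% lower and 2.26% higher. The 7 were the bacterial lipoprotein receptor Tlr2, the caspase Casp4, the NF-kB genes Nfkb2, Nfkbia and Nfkbiz, and the signalling pair Stat3 and Socs3. Their falls ranged from 1.86-fold in Nfkbiz to 3.54-fold in Tlr2. The median log2 ratio of HFD to control was -0.33 over the 33 members against 0.01 over all genes tested, and 29 of the 33 ratios were below 0. Both HFD libraries lay below both control libraries in 13 of the 33 members and above in 0, against 11.1% and 11.5% of all genes tested. The labels name no separate cultures or animals as replicates, so p-values reflect the spread among the 4 libraries alone, part of which may be technical. That spread is the departure from additive effects of diet and fraction, with 1 residual degree of freedom. For each gene, edgeR draws this spread towards a trend over all genes tested. A member's p-value thus rests largely on the spread of other genes. The spread holds no separate measure of how pools of mice on the same diet differ. The p-values would be too small if the fractions shared mice. Without fraction in the model no gene of the series passed in either direction (45 higher and 109 lower at an unadjusted p under 0.05).

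Among the 19 sensors and adaptors, 16 were tested, 2 were lower in HFD and 0 higher, with a median log2 ratio of -0.14. Tlr2, which pairs with Tlr1 to bind bacterial lipoproteins, had 28 counts (4.20 CPM) in HFD and 71 counts (12.9 CPM) in control GFP-Hi. In GFP-Low it had 4 counts (0.81 CPM) in HFD and 21 (4.75 CPM) in control. Each HFD library lay below both control libraries. The log2 ratio was -1.82 ± 0.36 (SE, edgeR adjusted p = 0.0125), a 3.54-fold fall, and DESeq2's Wald test did not call it (adjusted p = 0.124). Casp4, the mouse caspase-11 that binds lipopolysaccharide inside the cell, was at 14.7 CPM in HFD and 36.1 CPM in control GFP-Hi. Its GFP-Low levels were 10.5 CPM in HFD and 29.4 CPM in control. The diets did not overlap in Casp4 either, and its log2 ratio was -1.37 ± 0.17 (SE, edgeR adjusted p = 0.000772), a 2.59-fold fall.

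The other tested surface and peptidoglycan sensors had lower values in HFD that did not pass the test. Tlr1 was at 6.15 and 10.2 CPM in HFD and control GFP-Hi and at 6.87 and 11.5 CPM in GFP-Low, without overlap of the diets (log2 ratio -0.73 ± 0.27, edgeR adjusted p = 0.156). Nod1 gave -0.85 ± 0.26 (edgeR adjusted p = 0.097) and Nod2 -0.91 ± 0.31 (edgeR adjusted p = 0.118). Ripk2, the kinase behind both NOD receptors, gave -0.06 ± 0.34. In the signalling chain of the Toll-like receptors none passed. The log2 ratio was 0.00 ± 0.15 in Myd88, -0.13 ± 0.10 in Irak1, -0.27 ± 0.15 in Irak2, -0.55 ± 0.35 in Irak3, -0.03 ± 0.14 in Irak4 and -0.09 ± 0.12 in Traf6. Tlr3, the receptor for double-stranded RNA, gave -0.15 ± 0.14. The abundant inflammasome genes had the only sensor ratios above 0, with 0.15 ± 0.11 in Nlrp6, 0.08 ± 0.11 in Casp1 and 0.36 ± 0.09 in Pycard. Pycard was at 169 and 134 CPM in HFD and control GFP-Hi and at 322 and 246 CPM in GFP-Low, so that HFD was the higher in each fraction. It missed the threshold by a small margin (edgeR adjusted p = 0.0520) and passed under 4 of the other settings, with adjusted p from 0.0186 to 0.0473.

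In the NF-kB group of 11, 10 were tested, 3 were lower in HFD and 0 higher, all 10 ratios were below 0 and the median log2 ratio was -0.41. Nfkb2, which encodes the p100 precursor of p52, was at 18.3 CPM in HFD and 36.9 CPM in control GFP-Hi. In GFP-Low it was at 27.5 CPM in HFD and 69.2 CPM in control. The highest HFD library lay below the lowest control library. Nfkb2 fell 2.27-fold, a log2 value of -1.18 ± 0.14 (SE, edgeR adjusted p = 0.000762). Nfkbia, the inhibitor IkB-alpha that holds NF-kB in the cytoplasm, was at 43.2 and 75.0 CPM in HFD and control GFP-Hi and at 35.8 and 77.1 CPM in GFP-Low. It had nearly the same level in both control libraries, and its log2 ratio was -0.94 ± 0.13 (SE, edgeR adjusted p = 0.00138), a 1.92-fold fall. Nfkbiz, the nuclear IkB-zeta that acts with NF-kB on a subset of its targets, was at 65.5 and 127 CPM in HFD and control GFP-Hi and at 68.5 and 122 CPM in GFP-Low. Its libraries divided by diet alone. Nfkbiz fell 1.86-fold, a log2 value of -0.90 ± 0.11 (SE, edgeR adjusted p = 0.000646).

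Of the other subunits, the log2 ratio was -0.33 ± 0.11 in Nfkb1 (p105/p50), -0.38 ± 0.12 in Rela (p65), -0.19 ± 0.17 in Relb and -0.42 ± 0.36 in Rel, and none passed the test. In Nfkb1, Rela and Rel both HFD libraries lay below both control libraries, and in Relb they did not. Rel passed the filter only through its GFP-Hi libraries, at 26 and 25 counts. The ubiquitin-editing inhibitor Tnfaip3 (A20) gave -0.56 ± 0.21 (edgeR adjusted p = 0.168) and its partner Tnip1 -0.39 ± 0.13 (edgeR adjusted p = 0.112). Nfkbib, IkB-beta, another cytoplasmic inhibitor, gave -0.03 ± 0.17.

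Among the 14 cytokines, receptors and outputs, 7 were tested, 2 were lower in HFD and 0 higher, with a median log2 ratio of -0.12. Stat3, the transcription factor downstream of IL-6 and IL-22 receptors, was at 32.9 CPM in HFD and 69.2 CPM in control GFP-Hi. In GFP-Low it was at 63.0 CPM in HFD and 108 CPM in control. The diets did not overlap, and the log2 ratio was -0.92 ± 0.12 (SE, edgeR adjusted p = 0.00125), a 1.89-fold fall. Socs3, a feedback inhibitor that Stat3 itself induces, was at 6.30 and 13.6 CPM in HFD and control GFP-Hi and at 8.48 and 24.6 CPM in GFP-Low. Its log2 ratio was -1.33 ± 0.24 (SE, edgeR adjusted p = 0.00732), a 2.52-fold fall, which DESeq2's Wald test did not call (adjusted p = 0.0745). The receptors showed smaller ratios, none past the test: -0.43 ± 0.16 in the IL-22 receptor chain Il22ra1, -0.12 ± 0.11 in Tnfrsf1a, -0.08 ± 0.20 in Il17ra and 0.00 ± 0.12 in Il17rc. The inflammasome-processed cytokine Il18 gave 0.02 ± 0.29, from 9, 10, 101 and 83 counts in HFD GFP-Hi, control GFP-Hi, HFD GFP-Low and control GFP-Low.

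**Figure D2:**
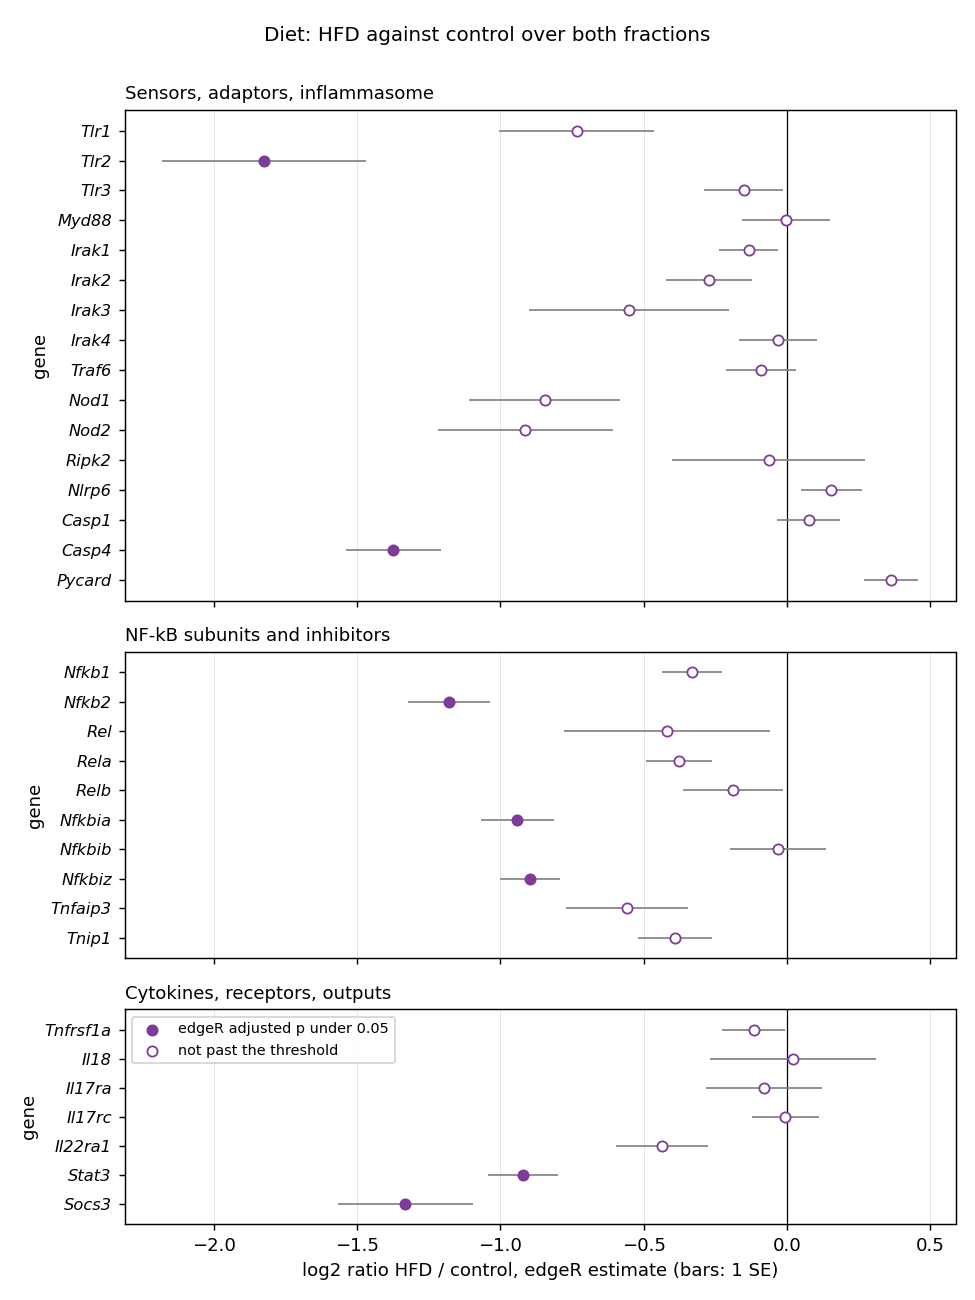
Log2 ratio of HFD to control over both fractions for the 33 tested members (edgeR estimate, bars 1 SE), filled where the adjusted p is under 0.05. The 7 filled points lie between -1.82 (Tlr2) and -0.90 (Nfkbiz), and Pycard is the highest point at 0.36.

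On GRCm38 (GENCODE M21), the genes lower in HFD lie at chr3:83836272-83841767 (Tlr2), chr9:5308828-5336783 (Casp4), chr19:46304320-46312385 (Nfkb2), chr12:55489410-55492647 (Nfkbia), chr16:55811375-55838899 (Nfkbiz), chr11:100885098-100939540 (Stat3) and chr11:117966079-117970047 (Socs3). The sequence before their starts is shown because 4 of them hold a kB-type motif near the start, so that count tests nothing. In the 250 bases before each RefSeq transcript start (GRCm38.p6), a common form of the NF-kB site was searched on both strands: GGG, then any 3 bases, then TTCC. It occurred in 4.65% of 32851 windows, in 15 of the 38 members with a window, in 4 of the 6 genes lower in HFD that had one and in 6 of 22 tested members that were not called. A member was counted if any of its windows matched, and some have several, so these counts and the share of windows are unlike measures. The motif was chosen with the results known, and a match is a description, not a binding site. Capitals mark the match, and each sequence is 5′ to 3′ on the strand of its gene. Nfkbia (chr12:55492648-55492897, minus strand, GRCm38.p6), Casp4 (chr9:5308599-5308827, plus strand) and Tlr2 (chr3:83841768-83841858, minus strand) are shown outside annotated exons. In the stretches shown, the matches begin 29 bases before the start in Nfkbia, 93 and 39 in Casp4 and 173 in Tlr2. For Nfkb2 (chr19:46304707-46304736, plus strand), 30 bases are shown that lie in an exon of another annotated transcript, with a match 11 bases before the start. Cxcl1 (chr5:90891165-90891194, plus strand) and Cxcl2 (chr5:90903811-90903840, plus strand), chemokine genes with matches at 71 and 78 bases, are added because they hold the same motif and had no count in any library. In Cxcl1 the capitals cover a match on each strand, overlapping in all but 1 base.
Nfkbia: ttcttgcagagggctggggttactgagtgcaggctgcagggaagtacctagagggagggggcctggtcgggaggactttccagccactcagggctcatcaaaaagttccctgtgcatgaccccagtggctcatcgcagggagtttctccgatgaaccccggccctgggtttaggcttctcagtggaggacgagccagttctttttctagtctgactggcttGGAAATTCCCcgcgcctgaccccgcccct
Casp4: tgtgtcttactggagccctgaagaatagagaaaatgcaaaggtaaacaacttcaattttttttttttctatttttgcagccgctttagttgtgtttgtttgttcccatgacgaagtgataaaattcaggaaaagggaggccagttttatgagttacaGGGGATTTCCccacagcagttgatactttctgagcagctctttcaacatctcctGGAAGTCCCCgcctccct
Tlr2: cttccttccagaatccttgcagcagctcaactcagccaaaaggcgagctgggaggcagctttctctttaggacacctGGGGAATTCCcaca
Nfkb2: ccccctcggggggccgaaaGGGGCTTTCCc
Cxcl1: ctgtactccGGGAATTTCCCtggcccggag
Cxcl2: cctggtccccGGGCTTTTCCagacatcgtg

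The motif TTCNNNGAA, the core that STAT factors bind and its own reverse complement, occurred in 7.02% of the same windows, in 7 of 38 members and in 2 of the 6 genes lower in HFD (Nfkb2 and Socs3). Among the 22 tested members not called, 5 held it, with members counted as above. A Socs3 match begins 154 bases before the RefSeq start. It is shown in the stretch of its window outside annotated exons (chr11:117969452-117969616, minus strand, GRCm38.p6). Matches elsewhere in that window were not listed. The stretch lies inside the GENCODE gene span given above. The bases after this RefSeq start were not found in a GENCODE transcript of Socs3.
Socs3: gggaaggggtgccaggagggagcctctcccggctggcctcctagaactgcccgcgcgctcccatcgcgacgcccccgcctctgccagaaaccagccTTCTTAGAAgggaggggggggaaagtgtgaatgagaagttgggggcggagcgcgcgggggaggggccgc

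With 1 library on each side, HFD could be set against control within a fraction without a test, as a log2 ratio of CPM with 0.5 CPM added. The 95% intervals given with it are exact conditional binomial (Clopper-Pearson) intervals of the count ratio, and they cover counting error only. In GFP-Hi, 4 of 29 members with at least 5 CPM were 2-fold or more lower in HFD (Casp4, Socs3, Stat3 and Tlr2) and 0 higher, against 1.52% and 0.810% of all such genes. In GFP-Low, 6 of 30 were lower (Casp4, Irak3, Nfkb2, Nfkbia, Nod1 and Socs3) and 0 higher, against 2.63% and 1.59%. Casp4 had similar ratios in the fractions, -1.27 (-1.66 to -0.94) in GFP-Hi and -1.44 (-1.98 to -1.01) in GFP-Low. Socs3 gave -1.05 (-1.69 to -0.55) and -1.48 (-2.09 to -1.01), and Stat3 -1.06 (-1.32 to -0.83) and -0.78 (-0.99 to -0.57). Nfkb2 gave -0.99 (-1.35 to -0.68) and -1.32 (-1.63 to -1.04). Nfkbia gave -0.79 (-1.02 to -0.57) and -1.10 (-1.38 to -0.84), and Nfkbiz -0.95 (-1.13 to -0.78) and -0.83 (-1.03 to -0.64). Tlr2 gave -1.51 (-2.30 to -0.97) and -2.00 (-4.56 to -0.99). All 7 genes called over both fractions had intervals below 0 in each fraction. They were called from these same libraries, so the intervals are no separate support for the calls.

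In 6 of the 33 tested members the log2 ratios in the fractions were over 0.5 apart, a difference that these libraries leave no degree of freedom to test. The share of all genes with such a difference was not counted, so the 6 cannot be called many or few. Irak3, the inactive kinase that damps Toll-like receptor signalling, had 29 and 21 counts in HFD and control GFP-Hi, a log2 ratio of 0.17 (-0.67 to 1.07). In GFP-Low it had 33 and 62 counts, a ratio of -1.02 (-1.73 to -0.44). Nod1 had 84 and 104 counts in GFP-Hi (-0.57, -1.02 to -0.15) and 20 and 46 counts in GFP-Low (-1.26, -2.2 to -0.58), lower in HFD each time. Il22ra1 was at 27.5 and 47.9 CPM in HFD and control GFP-Hi (-0.79, -1.08 to -0.53) and at 61.0 and 65.8 CPM in GFP-Low (-0.11, -0.35 to 0.13). Relb, the partner of p52, had a ratio of -0.48 (-0.76 to -0.22) in GFP-Hi and of 0.22 (-0.15 to 0.60) in GFP-Low. Tnfaip3 gave -0.86 (-1.43 to -0.39) and -0.29 (-0.70 to 0.10), and Nfkbib -0.33 (-0.68 to 0.01) and 0.26 (-0.07 to 0.59). The counting intervals of the fractions overlapped in Irak3, Nod1, Tnfaip3 and Nfkbib, and did not in Il22ra1 and Relb.

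**Figure D3:**
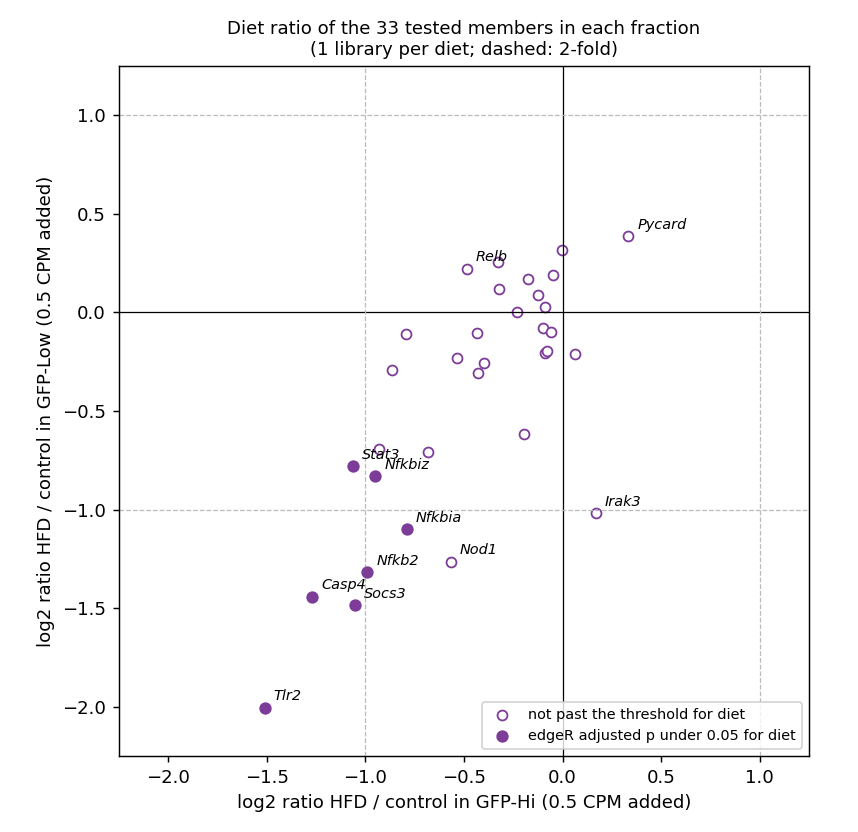
Log2 ratio of HFD to control in GFP-Hi (horizontal) and GFP-Low (vertical) for the 33 tested members, 1 library per diet, 0.5 CPM added, with dashed lines at 2-fold. The 7 filled points, called over both fractions, lie in the lower left, Irak3 lies at 0.17 and -1.02, and Pycard is above 0 in both fractions.

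The 11 members too low to test included the inducible outputs of the pathway. Lcn2, lipocalin-2, which starves bacteria of iron, had 1 count in HFD and 25 in control GFP-Hi, and 0 in HFD and 13 in control GFP-Low. In GFP-Hi the interval of the log2 ratio was -10.28 to -2.31, and in GFP-Low its upper bound was -1.77, with no lower bound because HFD was at 0. With no filter on low counts it passed the test (edgeR adjusted p = 9.98e-06). That setting is more liberal, and under it the edgeR adjusted p of Casp4 went from 0.000772 to 9.09e-13. The Lcn2 value therefore cannot be set beside those of the tested members. The cytokine Tnf had 1 and 14 counts in HFD and control GFP-Hi (interval -9.48 to -1.37) and 1 and 4 counts in GFP-Low (-7.78 to 1.18). Ccl20, a chemokine of the gut epithelium for dendritic cells and lymphocytes, had 1 and 6 counts in GFP-Hi (-8.38 to 0.18) and 2 and 13 in GFP-Low (-6.05 to -0.72). Neither passed without the filter (edgeR adjusted p = 0.108 in Tnf and 0.123 in Ccl20). Both HFD libraries lay below both control libraries in Lcn2, Tnf, Ccl20 and Tlr4, and in none of the other untested members. This held in 11.1% of all genes tested, but the share among genes this low was not counted.

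The lipopolysaccharide receptor Tlr4 had 3, 6, 2 and 5 counts in HFD GFP-Hi, control GFP-Hi, HFD GFP-Low and control GFP-Low, and the flagellin receptor Tlr5 had 1, 1, 4 and 1. Nfkbie, IkB-epsilon, another cytoplasmic inhibitor, had 20, 8, 9 and 16 counts in that order, with HFD higher in GFP-Hi and lower in GFP-Low. Il1rn, the IL-1 receptor antagonist, had 5 counts in control GFP-Hi and none elsewhere. The DNA receptor Tlr9, the neutrophil chemokines Cxcl1 and Cxcl2 and the acute-phase protein Saa1 had 0 counts in all libraries, which allows up to 3 counts, or 0.450 to 0.678 CPM, in a library. Saa1 has a near-identical neighbour, so its 0 is uncertain.

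**Figure D4:**
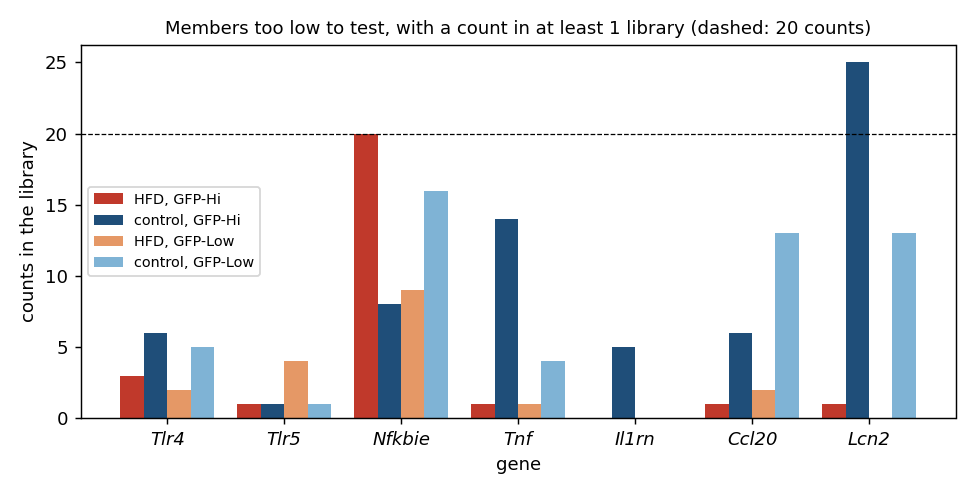
Counts per library of the 7 untested members with any count, with the dashed line at the filter of 20 counts. Lcn2, Tnf and Ccl20 have at most 2 counts in an HFD library, and Lcn2 reaches 25 in control GFP-Hi.

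The second comparison set GFP-Hi against GFP-Low over both diets. Of the 33 tested members, 5 were higher and 15 lower in GFP-Hi, and 13 did not pass, where 46.3% of all genes tested were called, 21.5% higher and 24.8% lower. Both GFP-Hi libraries lay above both GFP-Low libraries in 6 of the 33 and below in 14, against 34.1% and 33.9% of all genes tested. The median log2 ratio was -0.18 over the members and 0.01 over all genes tested. Scaling by library totals in place of TMM moved the median of all genes by 0.19 on the log2 scale. Under it 9 members were higher and 11 lower, and over all genes the calls went from 2297 higher and 2656 lower to 3628 and 1931.

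Sensors fell on both sides, with 4 higher and 6 lower in GFP-Hi. The 4 higher ones were Tlr2, Nod1, Nod2 and Nlrp6. Tlr2, with the counts given above, was 3.20-fold higher (1.68 ± 0.37 on the log2 scale, edgeR adjusted p = 0.00329), and its HFD GFP-Hi library lay below its control GFP-Low library. Nod1 was at 12.6 and 18.9 CPM in HFD and control GFP-Hi and at 4.04 and 10.4 CPM in GFP-Low. Its log2 ratio was 1.18 ± 0.27 (SE, edgeR adjusted p = 0.00434), with both GFP-Hi libraries above both GFP-Low libraries. Nod2 was at 5.85 and 11.6 CPM in GFP-Hi and at 3.03 and 5.20 CPM in GFP-Low, also without overlap (1.07 ± 0.31, edgeR adjusted p = 0.0164). Nlrp6 was at 438 and 439 CPM in GFP-Hi and at 396 and 318 CPM in GFP-Low, 1.24-fold higher in GFP-Hi.

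The 6 sensors lower in GFP-Hi were Tlr3, 3 Irak kinases, Casp1 and Pycard. Pycard gave -0.91 ± 0.09 on the log2 scale (edgeR adjusted p = 2.31e-05). Casp1 was at 62.7 and 64.8 CPM in HFD and control GFP-Hi and at 126 and 111 CPM in GFP-Low (-0.89 ± 0.11, edgeR adjusted p = 8.01e-05). Irak3 was at 4.35 and 3.81 CPM in GFP-Hi and at 6.67 and 14.0 CPM in GFP-Low (-1.26 ± 0.35, edgeR adjusted p = 0.0126). Irak4, the kinase recruited first by Myd88, was at 26.3 and 28.0 CPM in GFP-Hi and at 41.0 and 40.2 CPM in GFP-Low, 1.5-fold lower. Tlr3 was at 24.8 and 26.3 CPM in GFP-Hi and at 37.6 and 43.4 CPM in GFP-Low, 1.58-fold lower. Irak2 was at 20.9 and 28.3 CPM in GFP-Hi and at 32.7 and 35.3 CPM in GFP-Low, 1.4-fold lower. In none of these 6 did the fractions overlap.

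In the NF-kB group 1 member was higher in GFP-Hi and 3 were lower. Relb was at 31.7 and 44.5 CPM in HFD and control GFP-Hi and at 28.3 and 24.2 CPM in GFP-Low, 1.43-fold higher. Tnfaip3 was at 7.95 and 14.9 CPM in GFP-Hi and at 20.6 and 25.3 CPM in GFP-Low (-1.04 ± 0.21, edgeR adjusted p = 0.00213). Nfkb2 was lower as well (-0.77 ± 0.14, edgeR adjusted p = 0.00114), although its control GFP-Hi library lay above its HFD GFP-Low library. Nfkbib was at 21.3 and 26.9 CPM in GFP-Hi and at 36.6 and 30.5 CPM in GFP-Low, 1.41-fold lower. Nfkbia and Nfkbiz, called for diet, gave 0.10 ± 0.13 and 0.00 ± 0.11 for fraction.

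Of the 7 tested cytokines, receptors and outputs, 6 were lower in GFP-Hi and Il17ra did not pass. Il18 was at 1.35 and 1.82 CPM in HFD and control GFP-Hi and at 20.4 and 18.8 CPM in GFP-Low, a 12.4-fold difference (-3.63 ± 0.32, edgeR adjusted p = 6.38e-06). It passed the filter only through GFP-Low, so it had to differ in order to be tested. Il17rc, the epithelial partner of Il17ra in the IL-17 receptor, was at 35.3 and 38.5 CPM in GFP-Hi and at 102 and 96.1 CPM in GFP-Low (-1.43 ± 0.12, edgeR adjusted p = 4.31e-06). Il17ra itself was at 14.1 and 14.7 CPM in GFP-Hi and at 15.0 and 16.1 CPM in GFP-Low. Il22ra1 gave -0.79 ± 0.16 (edgeR adjusted p = 0.00210) and Stat3 -0.78 ± 0.12 (edgeR adjusted p = 0.000355). Tnfrsf1a was at 69.3 and 81.5 CPM in GFP-Hi and at 102 CPM in each GFP-Low library, 1.36-fold lower, and Socs3 was 1.61-fold lower. Enterocyte and goblet markers, summed above, were also lower in GFP-Hi, and their part in these differences was not tested. With DESeq2's Wald test 2 members remained higher (Nod1 and Tlr2) and 8 lower, and without diet in the model 0 were higher and 6 lower.

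**Figure D5:**
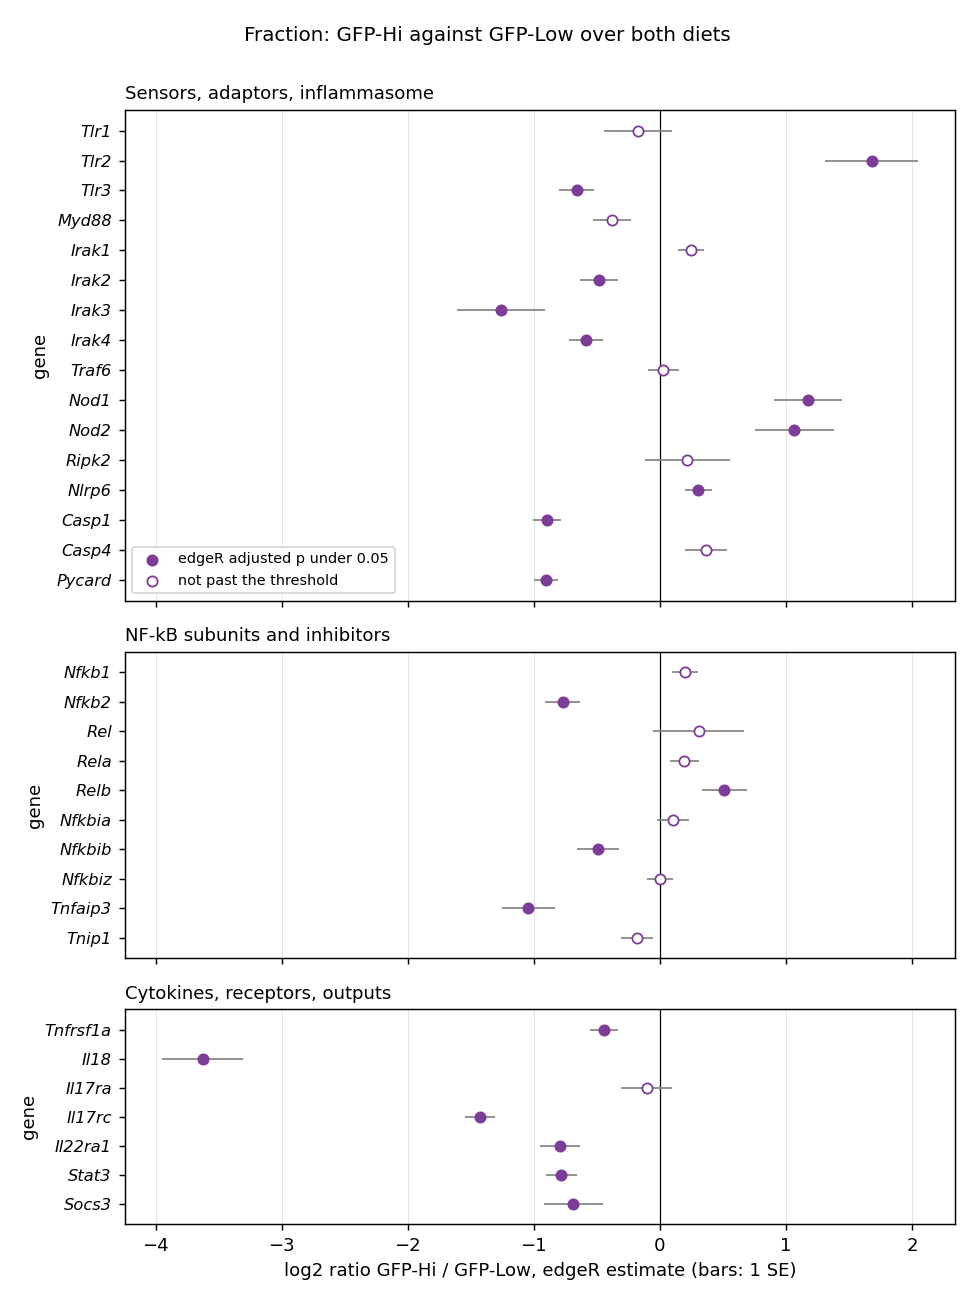
Log2 ratio of GFP-Hi to GFP-Low over both diets for the 33 tested members (edgeR estimate, bars 1 SE), filled where the adjusted p is under 0.05. Tlr2, Nod1 and Nod2 lie highest, from 1.07 to 1.68, and Il18 lies lowest at -3.63.

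Of 97 other genes of the same pathways, 62 were tested for diet, and 12 were lower and 1 higher in HFD, with a median log2 ratio of -0.17. Over all genes tested, 3.0% were lower and 2.26% higher in HFD, with a median of 0.01. Among the other sensing genes 3 of 17 were lower. Cd14, the co-receptor that hands lipopolysaccharide and lipoproteins to Tlr4 and Tlr2, was at 7.80 and 32.5 CPM in HFD and control GFP-Hi and at 3.84 and 10.9 CPM in GFP-Low. Its log2 ratio was -1.88 ± 0.24 (SE, edgeR adjusted p = 0.00117), a 3.67-fold fall. Unc93b1, which carries nucleic acid receptors to endosomes, fell 1.77-fold and the peptidoglycan-binding protein Pglyrp1 fell 1.67-fold. Among the other NF-kB genes 3 of 25 were lower: Zc3h12a (Regnase-1), an endonuclease for cytokine mRNAs, fell 2.84-fold, N4bp1 1.67-fold and the ubiquitin ligase Birc3 1.59-fold. Zc3h12a was at 22.5 and 63.2 CPM in GFP-Hi and at 26.5 and 76.4 CPM in GFP-Low, without overlap of the diets (edgeR adjusted p = 5.64e-05).

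Among the other cytokine, receptor and output genes, 6 of 20 were lower in HFD and 1 was higher. Duox2, the epithelial oxidase that makes hydrogen peroxide at the luminal surface, was at 18.2 and 130 CPM in HFD and control GFP-Hi and at 24.4 and 171 CPM in GFP-Low. Its log2 ratio was -2.82 ± 0.12 (SE, edgeR adjusted p = 1.94e-07), a 7.07-fold fall. Its maturation factor Duoxa2 had 10 and 39 counts in GFP-Hi and 14 and 79 in GFP-Low, a 5.54-fold fall (edgeR adjusted p = 0.00149). Duoxa2 passed the filter only through its control libraries, so it had to differ in order to be tested. Jak2, a kinase of cytokine receptors, had the smallest fall, 1.38-fold (edgeR adjusted p = 0.0445). The gene higher in HFD was the small-intestinal chemokine Ccl25, at 178 and 130 CPM in GFP-Hi and at 383 and 208 CPM in GFP-Low (0.67 ± 0.12, edgeR adjusted p = 0.00590).

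For fraction, 5 of these 62 genes were higher and 22 lower in GFP-Hi, with a median log2 ratio of -0.19. The 27 called are 43.6% of the 62, against 46.3% of all genes tested. Of the 17 other sensing genes, 1 was higher in GFP-Hi and 10 were lower. The 1 was Cd14, 2.63-fold higher. Among the 10 were the cytoplasmic sensors of flagellin and secretion systems Naip1, Naip2, Naip5, Naip6 and their partner Nlrc4, named here after their values were seen, with log2 ratios between -1.16 and -0.47, and reads may be shared among the near-identical Naip genes. The kinase subunit Ikbkb, which phosphorylates IkB, was 1.4-fold higher. The chemokine Cx3cl1 was 6.36-fold lower in GFP-Hi, at 13.5 and 16.7 CPM in HFD and control GFP-Hi and at 84.8 and 108 CPM in GFP-Low. Ticam1 (TRIF), the adaptor of Tlr3, was 2.39-fold lower, at 26.9 and 35.6 CPM in GFP-Hi and at 71.3 and 76.6 CPM in GFP-Low, as Tlr3 was.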

How the data were processed

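The deposited files hold raw read counts per gene, not normalized, for 4 libraries. Reads were processed with cutadapt, TopHat version 1.4.1 and HTSeq on GRCm38 (mm10), per the submitters' processing notes, and libraries were strand-specific (dUTP), per the labels' protocols. The sources used here do not name the annotation release or the strand option used in counting, and the 9 members whose exons overlap a gene on the opposite strand (Tlr3, Myd88, Irak2, Irak3, Irak4, Pycard, Nfkb2, Nfkbib and Stat3) may share reads with it.

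Members and lists were chosen with earlier results of these data known. Counts were scaled with TMM (edgeR version 4.0.16, R version 4.3.3). A gene was tested if 2 or more libraries had 20 or more counts (10694 genes). The test was the two-sided quasi-likelihood F-test of edgeR in 1 additive model of diet and fraction with 1 residual degree of freedom, with Benjamini-Hochberg adjustment over all genes tested. Where diet acts unlike in the fractions, the model reads this as spread. The common dispersion was 0.00694. Each SE given is the size of the log2 ratio divided by the square root of the F statistic, so it restates the test. Data were simulated with the gene means and sizes of these libraries and with 200 of 10694 genes changed. There the diet test recovered 89% of 2-fold and 100% of 4-fold changes with 6.90% false calls. The fraction test recovered 92% and 100% with 4.95%. The simulation gave all genes the common dispersion, no other difference between groups and the same change in each block. Its rates may therefore not hold for the real libraries.

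Members past a test or the 2-fold rule have their level in every library, and up to 12 per comparison with the largest folds have full statistics. Of each other pathway list, genes were named from the highest and lowest ratios that passed. Exon lengths and overlaps came from GENCODE M21, and promoter sequences from RefSeq (GRCm38.p6), which gave a window for 38 of 44 members. Alternatives were DESeq2 size factors and Wald test (version 1.42.0), library totals, other filters and models without a block, and edgeR's robust spread, added after seeing the data.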

Additional observations from a re-analysis of the deposited data

How the results depend on the processing

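For single members, 199 of 219 diet results and 182 of 221 fraction results kept their direction and their side of the threshold over 7 alternatives each. DESeq2 size factors changed no such call. Of the 7 members lower in HFD, 5 were called by DESeq2's Wald test (Tlr2 and Socs3 were not), 5 with a filter of 100 counts (23 members tested) and 0 without the fraction block, where 5 had an unadjusted p under 0.05. Without a filter 10 were lower, adding Lcn2, Nod1 and Il22ra1. Pycard was the 1 member called higher in HFD with library totals, no filter, a filter of 100 counts and robust spread.

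Over all genes, the 242 higher and 321 lower in HFD became 515 and 618 without a filter, 73 and 116 with the Wald test, and 0 and 0 without the fraction block (45 and 109 at an unadjusted p under 0.05 with edgeR). For fraction, 2297 higher became 3628 with library totals, and the 2297 and 2656 became 899 and 1491 with the Wald test and 1199 and 1595 without the diet block. Of members, 5 higher in GFP-Hi became 9 with library totals, 3 with a filter of 100 counts, 2 with the Wald test and 0 without the diet block (2 unadjusted), and 15 lower became 8 and 6 with the last 2 settings. Within fractions, a minimum of 1 CPM gave 286 higher and 372 lower genes in GFP-Hi and 429 and 593 in GFP-Low, and 20 CPM gave 22, 74, 74 and 138, against 83, 156, 164 and 271. With 2 CPM added, 52 were higher in GFP-Hi. Members 2-fold lower in HFD within GFP-Hi went from 4 to 7 at 1 CPM (adding Lcn2, Tnf and Ccl20) and to 2 at 20 CPM.

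Signs changed only in uncalled values near 0. With library totals the fraction ratio was 0.0817 in Il17ra, 0.0123 in Tlr1 and 0.0062 in Tnip1. Without the fraction block the diet ratio was 0.0304 in Il17rc, 0.0178 in Myd88 and 0.0098 in Nfkbib, and with a filter of 100 counts it was 0.0026 in Myd88. The Wald test gave a diet ratio of -0.0679 in Il18 and a fraction ratio of -0.0022 in Nfkbiz, for which no filter gave -0.0048. Apart from the filters and minimums, which change the genes tested, the cause was not tested. No paired analysis was possible because each group is 1 library and the labels carry no replicate numbers. For the same reason no library could be left out with a test. Members under 20 counts are limited by depth.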
